A study of Mus musculus with 6 samples.

Results

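The genes of the epidermal growth factor (EGF) family were followed across the cell classes of the C3Tag mouse mammary gland. The set held 10 genes, the ligands Areg, Ereg, Hbegf, Egf, Tgfa, Btc and Epgn and the receptors Egfr, Erbb2 and Erbb3, which were taken as a list by name and not for their values. They are 10 of the 31055 features counted in every library. Single-cell RNA sequencing (10x Genomics 3′ chemistry) had been run on 6 libraries, 2 for each of 3 states of disease. Prepuberty 1 and 2 were whole glands of 5-week-old mice, DCIS 1 and 2 were whole glands with ductal carcinoma in situ at 14 weeks, and Tumor 1 and 2 were palpable tumours of mice older than 18 weeks. All 6 came from female C3(1)-Tag mice, in which the C3(1) promoter drives the SV40 large T antigen in mammary epithelium on the FVB/NJ background, so the Prepuberty glands that serve as the comparator carry the oncogene too. No library without the transgene was analysed here. The labels do not say whether the 2 libraries of a state came from separate mice, so the p-values below measure the spread between these libraries, which may be technical.

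Ligands of the EGF family are made as transmembrane precursors and are released from the cell surface by metalloproteases. They bind receptor tyrosine kinases of the ErbB family, which pair with each other and signal through the Ras-MAPK and PI3K pathways. EGFR, the product of Egfr, binds all 7 of the ligands listed. ERBB2 has no known ligand and acts as a partner, and ERBB3 binds neuregulins and has a weak kinase. In the pubertal mammary gland, amphiregulin (Areg) is made by hormone-sensing luminal cells under oestrogen, and EGFR in the stroma is needed for the ducts to grow. EGFR is also much studied in basal-like breast cancer, which the C3Tag model is used to represent.

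In the GRCm38 assembly the genes for 4 of the ligands lie side by side on chromosome 5, namely Epgn (chr5:91027464-91035215), Ereg (chr5:91074622-91093646), Areg (chr5:91139599-91148432) and, on the reverse strand, Btc (chr5:91357261-91402994). Egf lies on the reverse strand at chr3:129677565-129755316 and Tgfa on the forward strand at chr6:86195223-86275719. Of the receptors, Egfr (chr11:16752203-16918158) and Erbb2 (chr11:98412470-98437716) lie on the forward strand and Erbb3 (chr10:128567523-128589652) on the reverse strand. The 250 bases that precede the RefSeq start (GRCm38.p6) are shown for Areg, whose level set the hormone-sensing cells apart, and for Egfr, whose level set the fibroblast-like cells apart. Capitals mark the cAMP response element TGACGTCA and the TATA box TATAAA, which were searched for on both strands together with the AP-1 element TGACTCA; the motifs do not overlap each other.
Areg (chr5:91139349-91139598, forward strand): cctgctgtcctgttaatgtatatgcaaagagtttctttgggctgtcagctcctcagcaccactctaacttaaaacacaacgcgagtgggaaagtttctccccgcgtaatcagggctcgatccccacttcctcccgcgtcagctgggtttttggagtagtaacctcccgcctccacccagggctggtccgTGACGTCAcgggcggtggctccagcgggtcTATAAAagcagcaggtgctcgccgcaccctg
Egfr (chr11:16751953-16752202, forward strand): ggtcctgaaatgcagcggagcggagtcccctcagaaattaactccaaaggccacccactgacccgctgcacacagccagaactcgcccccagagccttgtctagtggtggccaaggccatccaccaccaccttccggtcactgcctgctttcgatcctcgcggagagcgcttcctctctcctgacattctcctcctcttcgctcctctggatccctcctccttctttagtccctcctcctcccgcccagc
The Areg sequence held TGACGTCA at position -61 and TATAAA at position -31, counted from the start. Of 32851 mouse promoters of the same length, 1.55% held TGACGTCA, 12.4% held TATAAA and 4.46% held TGACTCA. The Egfr sequence, at 60.8% G and C, held none of the 3.

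The levels below rest on 21537 cells that passed the filters, of 23835 barcodes, with 28512209 to 57143434 unique molecular identifiers (UMIs, each standing for 1 captured transcript) per library and a median of 6541 to 13631.5 UMIs per cell. Tumor 2 was the deepest library by cell. The study's methods give Tumor 2 a later kit version (3 against 2) and the tumours another dissociation kit, whereas the labels give the same kit and digestion for all 6, so a difference between Tumor and the other states cannot be told apart from these steps. Pairs of libraries shared 9 to 39 cell barcodes. Cells were clustered without the 10 genes, and clusters were named by markers as "-like" classes, which took in 18932 cells. Luminal and tumour epithelial cells, called epithelial-like (107 to 2571 cells per library), were split into hormone-sensing luminal-like cells, secretory luminal-like cells, cycling cells and 2 clusters named by a leading gene, the Ankrd1 cluster and the Nppb cluster. Myoepithelial-like cells were kept apart. Levels are given as CPM, the UMIs of a gene per 1000000 UMIs of its class in a library, and they are compared between classes and states for 1 gene at a time, never between genes.

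2 classes of the Tumor libraries stood apart from their labels. T antigen UMIs were found in 31.9% and 45.9% of fibroblast-like cells in Tumor 1 and Tumor 2, against at most 0.622% in the other libraries, and in 38.1% and 49.2% of myoepithelial-like cells, against at most 0.529%. The summed level of 10 epithelial markers in fibroblast-like cells was 601 and 174 CPM in the Tumor libraries and 17.8 to 90.2 CPM elsewhere, where epithelial-like cells held 5326 to 15687 CPM. In the same fibroblast-like cells the 8 myoepithelial markers summed to 1110 and 392 CPM in Tumor, against 22.8 to 47.5 CPM before, and the 8 cycling markers to 776 and 1110 CPM, against 7.49 to 33.6 CPM, and the part of these cells in the fibroblast-like results was not tested. The 8 fibroblast markers stood at 20360 and 9789 CPM in those same Tumor cells, within or above the 6492 to 12745 CPM of the other libraries. In myoepithelial-like cells the 8 myoepithelial markers summed to 2156 and 4445 CPM in Tumor 1 and Tumor 2, where 5 and 7 of them were detected, against 6199 to 11854.5 CPM before Tumor. The epithelial markers of the same cells summed to 6178 and 2935 CPM in Tumor, against 707 to 1595 CPM before, so in Tumor 1 they exceeded the markers of the class. Clustering without integration put 0 cells of either Tumor library in this class. The hormone-sensing class held 12 cells in Tumor 1, where 5 of its 8 markers were detected at a sum of 77.8 CPM against 648 to 3243 CPM in the other libraries. Values without the cells that had a T antigen UMI (below also "without T antigen cells") are given for the fibroblast-like and myoepithelial-like results. Leaving these cells out need not remove every cell that expresses T antigen. Of epithelial-like cells, 675 of 2571 in Tumor 1 and 550 of 1335 in Tumor 2 had no T antigen UMI. Where 1 library of a state is left out, the test assumes that the remaining library varies like those of the other states.

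Among the ligands, Areg was highest in hormone-sensing luminal-like cells. In that class Areg stood at 232 and 203 CPM in Prepuberty 1 and 2, 397 and 322 CPM in DCIS 1 and 2, and 567 and 1382 CPM in Tumor 1 and 2. The states do not overlap in this class, and the Prepuberty values lie lowest. The share of hormone-sensing cells with an Areg UMI, after thinning each cell to 2000 UMIs, was 20.5%, 15.4%, 21.6% and 24.8% in the Prepuberty and DCIS libraries and 47.5% in Tumor 2, while Tumor 1 had too few cells. The unthinned shares were 39.8%, 28.1%, 38.3%, 43.1% and 57.5%. In pericyte- or smooth-muscle-like cells the thinned share was 0 of 94, 0 of 137, 0 of 48 and 0 of 68 cells in the Prepuberty and DCIS libraries, which allows a share of up to 3.19%, 2.19%, 6.25% and 4.41%, and 1 of 21 cells in Tumor 1. In T- or NK-like cells, a class in which some cells are known to make amphiregulin and which is therefore no clean negative, it was 0 of 35, 0 of 20, 0 of 77 and 0 of 67 cells in the 4 libraries with enough of them, which allows a share of up to 8.57%, 15.0%, 3.90% and 4.48%. The hormone-sensing class made up 30.8% and 29.9% of epithelial-like cells in Prepuberty, 9.86% and 27.1% in DCIS, and 0.467% and 2.996% in Tumor.

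Outside the hormone-sensing class, Areg UMIs came mostly from the other epithelial subsets. Secretory luminal-like cells, the precursors of milk-producing alveoli, held Areg at 107, 33.8, 18.5 and 68.9 CPM in the Prepuberty and DCIS libraries, and at 348 and 17.8 CPM in Tumor 1 and Tumor 2. The Nppb cluster, which was almost absent from Prepuberty and DCIS (4 to 39 cells per library) and held 896 and 366 cells in Tumor, had 494 and 202 CPM there. In the Ankrd1 cluster the Tumor values were 561 and 69.1 CPM, against 14.0 to 32.1 CPM in the other libraries. Over all epithelial-like cells, Areg stood at 100, 41.3, 54.2, 87.9, 429 and 104 CPM in Prepuberty 1 to Tumor 2, so Tumor 1 stands alone and Tumor 2 lies next to Prepuberty 1. This class held 71.8% to 92.7% of all Areg UMIs of a library.

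Ereg, which encodes epiregulin, a ligand that is low in most resting tissues, was almost confined to fibroblast-like cells in Prepuberty. Fibroblast-like cells held 94.8% and 100% of the Ereg UMIs of the Prepuberty libraries, 48.3% and 91.5% in DCIS, and 6.05% and 29.8% in Tumor. These shares also follow cell numbers, which were 2074 and 1700, 643 and 1275, and 263 and 290 in the class. Epithelial-like cells held 2 and 0 Ereg UMIs in Prepuberty and 15 and 1 in DCIS, but 2008 and 699 in Tumor, which is 47.3 and 24.99 CPM. Within the Tumor epithelium Ereg was highest in the Nppb cluster, at 61.3 and 60.0 CPM, and was present in the Ankrd1 cluster (56.5 and 14.5 CPM), cycling cells (32.5 and 14.8 CPM) and secretory cells (32.1 and 3.51 CPM). In fibroblast-like cells Ereg stood at 12.5, 1.90, 2.60, 8.08, 47.7 and 104 CPM in the 6 libraries, the Tumor libraries being the 2 highest.

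Hbegf, which encodes heparin-binding EGF-like growth factor, showed a different distribution. In Prepuberty its UMIs came mainly from endothelial-like cells, which held 55.7% and 60.3% of the Hbegf UMIs, against 28.1% and 12.6% in epithelial-like cells. The Prepuberty libraries held 704 and 667 endothelial-like and 718 and 107 epithelial-like cells, and the shares follow these numbers too. In Tumor 1 epithelial-like cells held 86.2% of 57345 Hbegf UMIs and in Tumor 2 63.0% of 4872. Schwann-like cells, the glia of peripheral nerve, held Hbegf at 352, 439, 311 and 421 CPM in the Prepuberty and DCIS libraries, above the endothelial-like cells in 3 of those 4. Among epithelial subsets the Ankrd1 cluster was highest in the Prepuberty and DCIS libraries, at 137, 327, 169 and 224 CPM, while hormone-sensing cells were low, at 8.14, 42.7, 26.0 and 20.3 CPM. In Tumor 1 every epithelial subset held 817 to 1849 CPM. Those of Tumor 2 held 14.5 to 213 CPM, within the 0 to 327 CPM of the subsets of the 4 earlier libraries.

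The other 4 ligands are given in turn. Tgfa, which encodes transforming growth factor alpha, was detected in every epithelial subset with at least 20 cells in a library, at 7.25 to 37.5 CPM, in endothelial-like cells at 1.46 to 10.9 CPM, and not at all in macrophage-like or pericyte-like cells. Btc, which encodes betacellulin, stood at 6.67 to 10.6 CPM in epithelial-like cells, and among the named classes its highest mean was in Schwann-like cells (42.0 ± 46.0 CPM, SD, n = 4 libraries with at least 20 cells), where 100 UMIs came from Prepuberty 2 and none from DCIS 1. Myoepithelial-like cells held 1 Btc UMI in all 6 libraries. Epgn, which encodes epigen, stood at 2.68 to 6.72 CPM in epithelial-like cells and reached 14.4 CPM in the Ankrd1 cluster of DCIS 1. Egf itself was near the limit of detection, with 42 UMIs in all epithelial-like cells of the 6 libraries and none in hormone-sensing, macrophage-like or pericyte-like cells.

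The receptors were split between compartments. Egfr was highest in fibroblast-like cells, at 94.5, 76.3, 94.6, 120, 27.9 and 39.6 CPM in Prepuberty 1 to Tumor 2, and this class was above the next one, pericyte- or smooth-muscle-like cells, in 5 of 5 libraries that had both. Pericyte-like cells (37.3 ± 13.8 CPM, n = 5), myoepithelial-like cells (30.0 ± 15.6 CPM, n = 6) and the Ankrd1 cluster (29.7 ± 6.97 CPM, n = 5) were next and differed by less than their spread. Hormone-sensing cells, the class with the highest Areg, held 6, 14 and 6 Egfr UMIs in Prepuberty, DCIS and Tumor, at 0.685 to 11.1 CPM, a range that overlaps those of endothelial-like cells (0 to 9.15 CPM) and of macrophage-like cells (0 to 3.90 CPM). Fibroblast-like cells held 84.3% and 85.2% of all Egfr UMIs of the Prepuberty libraries and 9.69% and 18.1% of those of the Tumor libraries. Such shares also follow cell numbers, and the class held 2074 and 1700 cells in Prepuberty and 263 and 290 in Tumor. In the Tumor libraries epithelial-like cells, 2571 and 1335 cells there, held 78.2% and 63.4%.

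Erbb3 marked the luminal epithelium. In epithelial-like cells it stood at 138, 74.2, 28.2, 42.3, 22.7 and 29.8 CPM in the 6 libraries, and Prepuberty does not overlap the later states. Its level was highest in hormone-sensing (82.8 ± 44.9 CPM, n = 5) and secretory cells (65.1 ± 46.2 CPM, n = 6), which differed by less than their spread. Fibroblast-like cells held 0.123 to 2.13 CPM and endothelial-like cells had a mean of 0.260 CPM. Erbb2 was spread more evenly, at 14.0 to 33.8 CPM in epithelial-like cells, 2.04 to 13.9 CPM in fibroblast-like cells and 0 to 9.85 CPM in endothelial-like cells, while T- or NK-like cells held no Erbb2 UMI. Macrophage-like cells had at most 2 Erbb2 UMIs in a library.

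**Figure D1:**
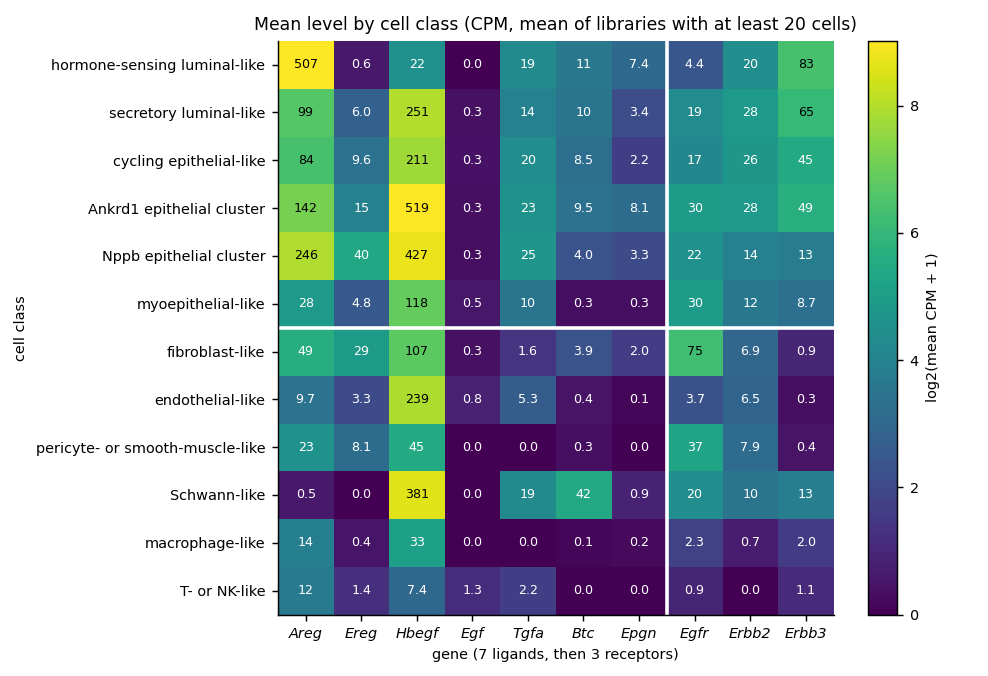
Mean level of each of the 10 genes (columns) in 12 cell classes (rows), in CPM as printed in each cell, averaged over libraries with at least 20 cells of the class; the colour is log2(mean CPM + 1). Colours are to be read down a column. Areg is highest in hormone-sensing luminal-like cells (507), Egfr in fibroblast-like cells (75) and Erbb3 in the luminal classes. Hbegf is high in both epithelial clusters and in Schwann-like, secretory, endothelial-like and cycling cells. Tumor 1 raises the Hbegf means of these epithelial classes, with secretory cells at 1264 CPM there and at 14.2 to 63.9 CPM in the other libraries.

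**Figure D2:**
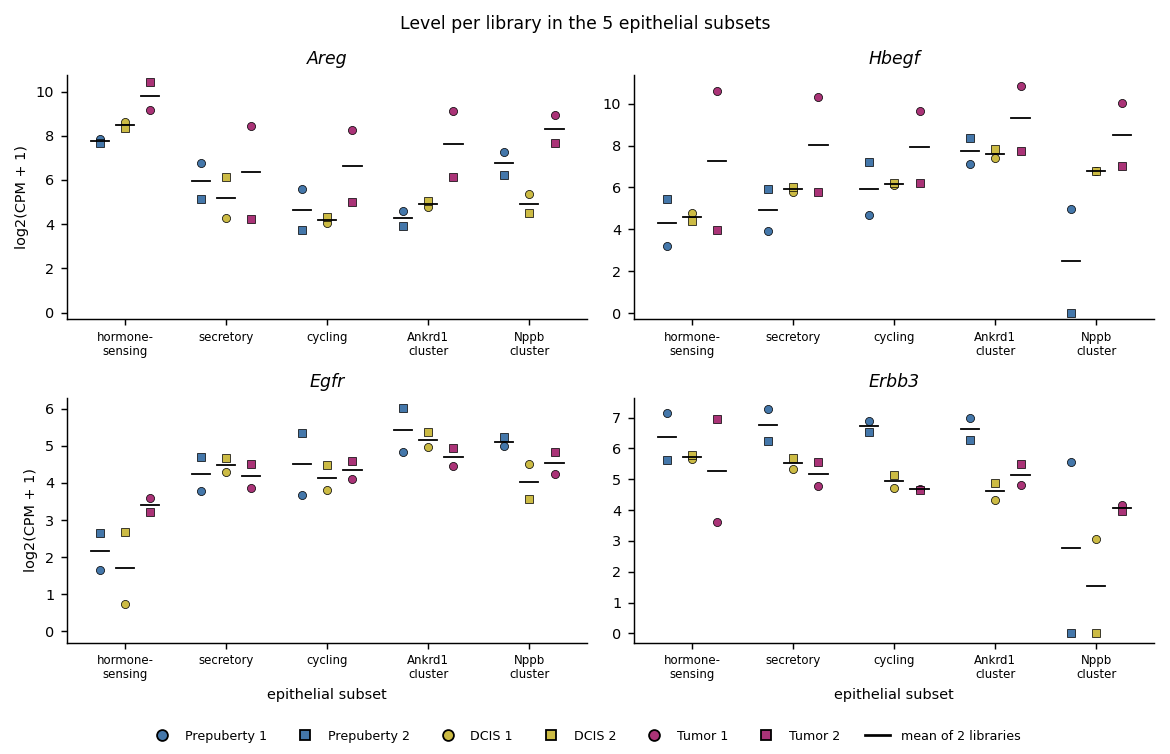
Level of Areg, Hbegf, Egfr and Erbb3 per library in 5 epithelial subsets, as log2(CPM + 1); colour is the state, the circle is library 1, the square library 2, and the bar is their mean on the log2 scale. The circles of Tumor 1 stand above all others for Hbegf in every subset, and hormone-sensing cells are highest for Areg and lowest for Egfr in most libraries.

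The state comparisons asked which of these levels changed between normal ducts, DCIS and tumour in each class. Counts were summed per library and class and tested by edgeR's quasi-likelihood test over all genes, with Benjamini-Hochberg adjustment and a threshold of 0.05. Of the 10 genes, 9 could be tested in epithelial-like cells, 9 in secretory, 6 in hormone-sensing, 3 in myoepithelial-like, 8 in fibroblast-like, 5 in endothelial-like and 2 in macrophage-like cells. Of 126 tests of a member over 7 classes and 3 comparisons, 14 passed, 8 higher and 6 lower in Tumor, where 5.14% of 213099 tests of all genes passed, and they fell on 5 genes: Areg, Ereg, Hbegf, Egfr and Erbb3. Of the 8 higher calls, 6 were of genes that met the filter on low counts only with the Tumor libraries, namely Ereg in epithelial-like, Hbegf in myoepithelial-like and Areg in endothelial-like cells, so the filter let them in through the state where they were high and their number is a description. Tumor minus DCIS and Tumor minus Prepuberty share the Tumor libraries and are not independent of each other.

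Between Prepuberty and DCIS no member passed the edgeR test in any class. Of 42 such tests, 7 had an unadjusted p under 0.05, and DESeq2 called 1. Few genes of any kind did: edgeR called 0% of the genes tested in epithelial-like, hormone-sensing, secretory, myoepithelial-like, fibroblast-like and endothelial-like cells and 0.115% in macrophage-like cells. At an unadjusted p under 0.05 there were 1750 genes in epithelial-like, 383 in hormone-sensing, 1048 in secretory, 834 in myoepithelial-like, 1232 in fibroblast-like and 1205 in endothelial-like cells, and DESeq2 called 337, 9, 78, 42, 85 and 58. Values of some members follow, and those of Hbegf in endothelial-like cells stand with that class. Ereg in secretory cells had a log2 fold change of -2.60 (adjusted p = 0.823) and in epithelial-like cells of 1.97 (0.570). The first rests on 1 UMI in Prepuberty 1 and 0 in Prepuberty 2, DCIS 1 and DCIS 2, the second on 2 and 0 UMIs in Prepuberty and 15 and 1 in DCIS. Erbb3 in epithelial-like cells was 106 ± 45.0 CPM (SD, n = 2) in Prepuberty and 35.2 ± 9.97 in DCIS, a log2 fold change of -1.50 ± 0.41 (SE, adjusted p = 0.286 by edgeR, 0.0428 by DESeq2). Erbb2 in the same cells was 32.2 ± 1.59 and 15.5 ± 2.13 CPM (log2 fold change -0.95 ± 0.28, adjusted p = 0.291). Tgfa went from 11.7 ± 1.04 to 18.8 ± 3.25 CPM (log2 fold change 0.79, adjusted p = 0.351), and Areg in hormone-sensing cells from 217 ± 20.8 to 360 ± 52.8 CPM (log2 fold change 1.03 ± 0.49, adjusted p = 0.999).

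In epithelial-like cells of Tumor, Ereg rose and Erbb3 fell. Ereg was at 0.153 and 0 CPM in Prepuberty, 0.924 and 0.0651 in DCIS, and 47.3 and 24.99 in Tumor. It met the filter on low counts only with the Tumor libraries, so its calls are a description. Its log2 fold change was 5.85 ± 0.90 against DCIS (adjusted p = 0.0325) and 7.82 ± 1.19 against Prepuberty (adjusted p = 0.0238), where the comparator held 2 UMIs and the ratio of levels was 294 with a counting interval of 81.3 to 2428. Erbb3 fell by 2.34 ± 0.42 on the log2 scale from Prepuberty to Tumor (adjusted p = 0.0276), and in secretory luminal-like cells by 2.04 ± 0.43 (adjusted p = 0.0454), from 154 and 73.8 to 26.5 and 46.5 CPM. In hormone-sensing cells, the other Erbb3-high subset, its log2 fold change was -0.83 ± 0.76 (adjusted p = 0.717). That subset was 30.8% and 29.9% of epithelial-like cells in Prepuberty and 0.467% and 2.996% in Tumor. The 8 hormone-sensing markers also went from 720 and 288 to 60.6 and 104 CPM in epithelial-like cells, with 121 and 311 CPM in DCIS, and from 816 and 302 to 94.1 and 105 CPM in secretory cells, and their part in the Erbb3 values was not tested. Between DCIS and Tumor, Erbb3 in epithelial-like cells had a log2 fold change of -0.83 (adjusted p = 0.239). Of all genes, 2.92% passed in epithelial-like cells between Tumor and DCIS and 7.66% between Tumor and Prepuberty, and 1.69% and 4.48% in secretory cells.

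These calls rest on few libraries. Ereg against Prepuberty kept its direction but not its call without Prepuberty 1 (log2 fold change 12.5, adjusted p = 0.131) or Prepuberty 2 (7.49, 0.106). Against DCIS, the call was lost without Prepuberty 1 (5.81, adjusted p = 0.0719), Prepuberty 2 (5.82, 0.0738), DCIS 1 (8.60, 0.0574) or DCIS 2 (4.96, 0.176), and in a fit of only the 4 libraries compared (5.83, 0.0726). Erbb3 in epithelial-like cells was lost without Prepuberty 1 (-1.72, adjusted p = 0.126) or Prepuberty 2 (-2.82, 0.0788), and the secretory call without any single library but Tumor 2 (log2 fold changes -2.54 to -1.34, adjusted p = 0.0559 to 0.184). The secretory call was also lost when scaled to total UMIs (-1.65, adjusted p = 0.0635), in a fit of only the 4 libraries (-2.06, 0.0819), with the replicate block (-2.02, 0.0721), with thinned sums (-2.02, 0.0504) and without integration (-1.11, 0.291), where the class held 1 cell of Tumor 1 and 39 of Tumor 2 and the fit had Tumor 2 alone. Without Tumor 1 the Ereg calls were kept at log2 fold changes of 5.07 against DCIS and 7.04 against Prepuberty.

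Areg and Hbegf did not pass in epithelial-like cells, although their Tumor means were the highest. Areg was 70.8 ± 41.6, 71.0 ± 23.9 and 267 ± 230 CPM in Prepuberty, DCIS and Tumor, a log2 fold change of 1.70 ± 0.78 from Prepuberty to Tumor (adjusted p = 0.189). Hbegf was at 43.9, 115, 92.3 and 88.1 CPM in the first 4 libraries, 1165 CPM in Tumor 1 and 110 CPM in Tumor 2, and its log2 fold change was 2.91 ± 1.03 (adjusted p = 0.112). Both rest on Tumor 1. Without Tumor 2 the fold changes from Prepuberty were 2.41 for Areg (adjusted p = 0.0276) and 3.803 for Hbegf (adjusted p = 0.00454), and without Tumor 1 those from DCIS were -0.01 and -0.28. Each of these fits holds 1 Tumor library, whose spread is taken from the other states. In epithelial-like cells without a T antigen UMI, Tumor 1 and 2 held Areg at 461 and 164 CPM and Hbegf at 1410 and 138 CPM.

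In hormone-sensing cells, edgeR called 0% of 8225 genes between Tumor and DCIS (1414 at an unadjusted p under 0.05, 135 called by DESeq2) and 0.0608% between Tumor and Prepuberty. Areg was 974 ± 576 CPM in Tumor, a log2 fold change of 1.85 ± 0.50 from Prepuberty (adjusted p = 0.225). Without Tumor 1, whose 12 cells held few markers of the class, the fold change was 2.25 (adjusted p = 0.0131), with a single Tumor library of 40 cells whose spread is taken from the other states, and without cells that had a T antigen UMI it was 2.47 (adjusted p = 0.0106). The latter fit also had Tumor 2 alone, with 37 cells, since the 5 cells left in Tumor 1 were below the minimum of 10 for a fit, so it rests on the same Tumor library. The other members of this class had adjusted p-values of at least 0.277 in that comparison.

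The remaining members did not pass in epithelial-like cells either. Tgfa reached 26.8 ± 1.40 CPM in Tumor (log2 fold change from Prepuberty 0.92 ± 0.30, adjusted p = 0.0915), and its 6 libraries order by state without overlap. Egfr had means of 23.4 ± 12.8, 20.8 ± 3.59 and 21.3 ± 5.41 CPM (log2 fold change -0.37, adjusted p = 0.561). Btc and Epgn had log2 fold changes of -0.76 and -0.71 from Prepuberty to Tumor (adjusted p = 0.203 and 0.415). Erbb2 was 30.1 ± 5.25 CPM in Tumor (log2 fold change from DCIS 0.55, adjusted p = 0.253).

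**Figure D3:**
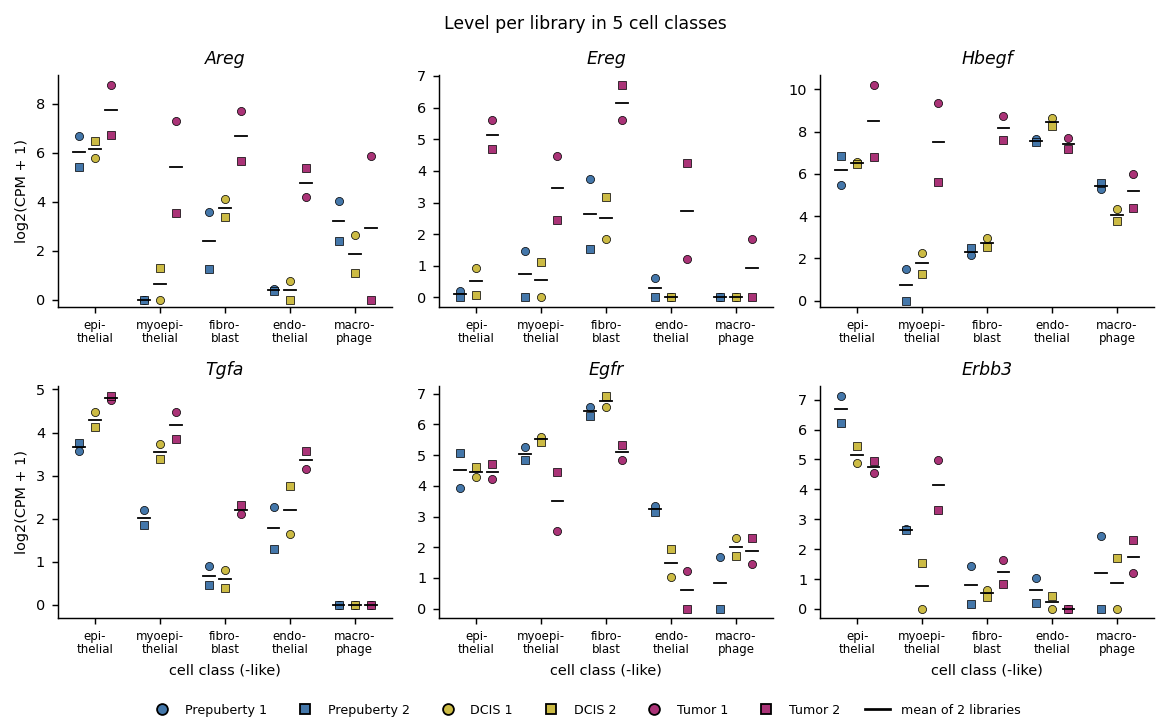
Level of 6 genes per library in 5 cell classes, as log2(CPM + 1); colour is the state, the circle is library 1, the square library 2, and the bar is their mean on the log2 scale. In fibroblast-like cells both Tumor libraries lie far above the other 4 for Hbegf and below them for Egfr, and in epithelial-like cells Ereg is near 0 before Tumor.

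In the class called fibroblast-like, Hbegf rose and Egfr fell in Tumor. Part of its Tumor cells held T antigen UMIs, and its myoepithelial and cycling markers were higher there, as given above. The part of these cells in the changes was not tested. Hbegf stood at 3.46, 4.60, 6.69 and 4.74 CPM in the Prepuberty and DCIS libraries and at 432 and 192 CPM in Tumor, with no overlap. It rose by 5.17 ± 0.62 on the log2 scale from DCIS (adjusted p = 0.00732) and by 5.90 ± 0.64 from Prepuberty (adjusted p = 0.00595). Egfr fell by 2.38 ± 0.34 from DCIS (adjusted p = 0.00887) and by 1.83 ± 0.33 from Prepuberty (adjusted p = 0.0183), from 107 ± 17.9 and 85.4 ± 12.9 CPM to 33.8 ± 8.27 CPM. Among all genes tested in the class, 14.1% passed between Tumor and DCIS and 9.13% between Tumor and Prepuberty, so 2 of 8 members in each comparison stand against that share. After thinning to 2000 UMIs, the share of fibroblast-like cells with an Hbegf UMI was 0.649% to 1.30% before Tumor and 37.5% and 21.8% in Tumor, against 2.60% and 4.48% of T- or NK-like cells, which can make HB-EGF themselves, in the same Tumor libraries (median depths of the unthinned cells 1221 to 2526 UMIs there and 6891 to 14692.5 in fibroblast-like cells). Pericyte- or smooth-muscle-like cells, at 0% to 2.19% before Tumor, had an Hbegf UMI in 8 of 21 cells of Tumor 1. The thinned Egfr share was 13.6% to 20% before Tumor and 7.03% and 6.91% in Tumor. The unthinned shares were 2.75% to 4.35% and then 66.9% and 51.0% for Hbegf, and 44.1% to 54.1% and then 27.8% and 40.7% for Egfr.

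The Hbegf level of fibroblast-like cells in Tumor 2 (192 CPM) was above that of epithelial-like cells in the same library (110 CPM), and in Tumor 1 it was below (432 against 1165 CPM). Without cells that had a T antigen UMI, 179 and 157 fibroblast-like cells of Tumor remained, with Hbegf at 291 and 240 CPM and Egfr at 36.0 and 45.1 CPM, and the 4 member calls of the class were kept. Tumour cells without a captured T antigen UMI may be among those left, so the kept calls do not separate fibroblasts from tumour cells. All 4 fibroblast-like clusters of Tumor had Hbegf at 182 to 599 CPM, against 1.02 to 10.3 CPM before Tumor, and their Egfr was 15.3 to 76.6 CPM against 60.2 to 147 CPM, overlapping only in the cluster led by Gsta1 and Pi16, which held 76.6 CPM in Tumor 2 and 70.5 to 94.9 CPM before. Scaled to total UMIs, which shifted the median of all genes from 0.13 to 0.85 between DCIS and Tumor, the log2 fold change of Egfr was -1.66 and that of Hbegf 5.78. Without Tumor 1 the Hbegf calls were kept at 4.13 from DCIS and 4.85 from Prepuberty. The Hbegf calls were lost without DCIS 2 (4.90, adjusted p = 0.0796) and without Prepuberty 2 (6.02, adjusted p = 0.0555). The Egfr calls were lost against DCIS without DCIS 1 (-2.56, adjusted p = 0.0514) or DCIS 2 (-2.24, 0.0896), and against Prepuberty without Prepuberty 1 (-1.64, 0.0844), Prepuberty 2 (-2.05, 0.0658), DCIS 2 (-1.86, 0.0523) or Tumor 2 (-1.93, 0.0577). The Egfr call against Prepuberty was also lost at a cluster resolution of 1.2 (-1.46, adjusted p = 0.0519) and without integration (-1.41, 0.0769).

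The other ligands of fibroblast-like cells did not pass in the edgeR fit without a replicate block, but Areg and Ereg passed in others. Areg stood at 10.8, 1.35, 16.2, 9.37, 205 and 49.7 CPM in the 6 libraries, the Tumor libraries being highest (log2 fold change from Prepuberty 4.01 ± 1.10, adjusted p = 0.0628, and from DCIS 2.75, adjusted p = 0.113). Areg passed against Prepuberty and DCIS by DESeq2 (4.004, adjusted p = 0.000579, and 2.69, 0.0289) and scaled to total UMIs (4.38, 0.0281, and 3.33, 0.0388). It also passed with the replicate number as a block (4.14, adjusted p = 0.00383, and 2.24, 0.0249), but that number does not tie samples of different states together. Other choices lowered it: without integration the log2 fold change was 1.77 from Prepuberty (adjusted p = 0.371) and 0.36 from DCIS (0.856), at a cluster resolution of 1.2 it was 3.23 and 1.77, and without Tumor 1 it was 2.27 and 1.02. Ereg had log2 fold changes of 3.03 from DCIS (adjusted p = 0.0590) and 2.82 from Prepuberty (adjusted p = 0.0851), and it passed against DCIS without Prepuberty 1 (3.01, adjusted p = 0.0268) or Prepuberty 2 (2.98, 0.0358) and against Prepuberty without Prepuberty 1 (4.79, 0.0439). It also passed against DCIS with the block (3.02, adjusted p = 0.0458) and in a fit of only the 4 libraries (3.01, 0.0292), and in both comparisons by DESeq2 (3.01, adjusted p = 0.00465, and 2.81, 0.00992) and scaled to total UMIs (3.79, 0.0225, and 3.39, 0.0431). Without integration its log2 fold change was 2.35 from DCIS (adjusted p = 0.241) and 2.14 from Prepuberty (0.300), and at a cluster resolution of 1.2 it was 2.396 and 1.85. Without cells that had a T antigen UMI, Areg stood at 141 and 63.6 CPM and Ereg at 32.5 and 138 CPM in Tumor, and neither passed by edgeR (adjusted p = 0.0589 for Areg against Prepuberty and 0.0735 for Ereg against DCIS). Tgfa was at 3.34 and 3.96 CPM in Tumor and at most 0.877 CPM before it (log2 fold change from DCIS 2.12, adjusted p = 0.118, and 2.83 with 0.0401 scaled to total UMIs), and at 2.54 and 3.69 CPM in Tumor without T antigen cells. It met the filter on low counts through the Tumor libraries alone, so the gained call is a description. Epgn had 0 to 2 UMIs in 5 libraries and 57 UMIs in Tumor 2, held by 17 of 290 cells. Of the 57 UMIs, 39 came from 1 cluster that held 22 cells of Tumor 2, and 44 were left without T antigen cells.

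The cluster class called myoepithelial-like, after the contractile layer around the ducts, also had Hbegf higher and Egfr lower in Tumor, but its Tumor cells went against the name in part. Their epithelial markers were high and their myoepithelial markers low, above all in Tumor 1 (6178 against 2156 CPM), and without integration the class held no Tumor cell, so neither comparison with Tumor could be made. The part of these cells in the values below was not tested. Hbegf was at 1.79, 0, 3.83 and 1.41 CPM before Tumor and at 653 and 48.1 CPM in Tumor 1 and 2. It met the filter on low counts only with the Tumor libraries, so its calls are a description. It rose by 6.80 ± 1.27 on the log2 scale from DCIS (adjusted p = 0.00624) and by 8.49 ± 1.65 from Prepuberty (adjusted p = 0.0142), where Prepuberty held 1 UMI and the ratio was 375 with a counting interval of 66.8 to 14868. Egfr fell by 2.31 ± 0.53 from DCIS (adjusted p = 0.0141), from 46.7 and 42.4 to 4.73 and 21.03 CPM, and had a log2 fold change of -1.53 from Prepuberty (adjusted p = 0.126, and -2.89 with 0.0409 without Tumor 2). In this class 22.6% of genes passed between Tumor and DCIS and 8.67% between Tumor and Prepuberty. Without cells with a T antigen UMI, 26 and 30 cells remained in Tumor, with Hbegf at 512 and 94.7 CPM and Egfr at 0 and 15.2 CPM. The size of the Hbegf change rests on Tumor 1: without it the log2 fold change was 3.60 from DCIS and 5.35 from Prepuberty, and without Tumor 2 it was 7.77 and 9.43, with the calls kept. Against DCIS it was 7.43 without DCIS 1 and 5.86 without DCIS 2, and that of Egfr was -3.68 without Tumor 2. The Hbegf call against Prepuberty was lost without Prepuberty 1 (11.7, adjusted p = 0.122) or Prepuberty 2 (7.23, 0.157), and the Egfr call without DCIS 1 (-2.24, 0.0560) and when scaled to total UMIs (-1.64, 0.0525).

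In endothelial-like cells, the lining of vessels, Hbegf fell between DCIS and Tumor. Its level was 199 and 180 CPM in Prepuberty, 401 and 305 CPM in DCIS and 207 and 141 CPM in Tumor, so DCIS lies above both other states. It fell by 1.37 ± 0.36 from DCIS to Tumor (adjusted p = 0.0375), and from Prepuberty to DCIS the log2 fold change was 1.22 (adjusted p = 0.285). The call was lost without DCIS 1 (-1.08, adjusted p = 0.211), DCIS 2 (-1.65, 0.0724) or Tumor 2 (-1.03, 0.111), at a cluster resolution of 1.2 (-0.81, 0.258) and with thinned sums (-1.05, 0.0916), and was kept at -1.98 without Tumor 1. Of all genes, 13.7% passed between Tumor and DCIS and 11.8% between Tumor and Prepuberty, and the class held 76 and 35 cells in Tumor against 354 to 704 before it. The class pools 2 clusters whose mix differed between the states. The cluster led by Gpihbp1 and Cldn5 made up 39.5% and 52.0% of the class in DCIS and 85.5% and 80% in Tumor, and the cluster led by Ackr1 and Selp made up the rest. In the first, Hbegf stood at 299 and 212 CPM in Prepuberty, 705 and 446 in DCIS and 213 and 152 in Tumor. In the other it stood at 174 and 120 CPM in DCIS, and its 11 and 7 cells of Tumor held 11 and 0 Hbegf UMIs.

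Areg passed in endothelial-like cells on very few molecules, and it met the filter on low counts through the Tumor libraries alone. It held 2 UMIs in each Prepuberty library, 2 and 0 in DCIS, and 13 and 11 in Tumor 1 and Tumor 2, with log2 fold changes of 5.66 ± 0.92 from DCIS (adjusted p = 0.00695) and 6.10 ± 0.82 from Prepuberty (adjusted p = 0.00289). The ratio against DCIS was 65.1 with a counting interval of 16.2 to 568. In Tumor 1 the UMIs came from 11 of 76 cells, and in Tumor 2 all 11 came from 1 of 35 cells. Epithelial markers summed to 124 and 61.6 CPM in these cells, against 37.5 to 75.9 CPM before Tumor. The 8 fibroblast markers summed to 318 and 286 CPM, against 275 and 193 in Prepuberty and 53.3 and 55.6 in DCIS, and the 8 cycling markers to 414 and 1479 CPM, against 6.84 to 55.1 before Tumor. The part of these in the Areg and Hbegf levels of the class was not tested. With thinned sums, with 2 times the doublets removed and without integration, Areg had too few UMIs to be tested in the class. The other alternatives kept both calls, at log2 fold changes from DCIS that ran from 4.65 without DCIS 2 to 9.30 without DCIS 1. Egfr, at 9.15 and 7.86 CPM in Prepuberty, 1.06 and 2.89 in DCIS and 1.32 and 0 in Tumor, had a log2 fold change of -3.12 from Prepuberty to Tumor (adjusted p = 0.0853).

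Macrophage-like cells carried little of the family. Only Areg and Hbegf could be tested, and neither passed in any comparison by edgeR or DESeq2 or had an unadjusted p under 0.05, where 6.22% of genes passed between Tumor and DCIS and 5.78% between Tumor and Prepuberty. Hbegf stood at 37.4, 46.7, 19.4, 12.4, 62.5 and 19.5 CPM in the 6 libraries, so the Tumor values span those of the other states (log2 fold change from Prepuberty -0.35, adjusted p = 0.797). Without Tumor 1 it was -1.77 (adjusted p = 0.0489) and without Tumor 2 0.35. Areg was at 56.4 CPM in Tumor 1, 0 in Tumor 2 and 1.13 to 15.4 CPM before Tumor (log2 fold change from DCIS 2.58, adjusted p = 0.294, 3.55 without Tumor 2 and -5.17 without Tumor 1). It met the filter on low counts in this class only with the Tumor libraries. After thinning, 8.36% of macrophage-like cells of Tumor 1 had an Hbegf UMI (exact interval 5.63% to 11.9%) against 2.60% of T- or NK-like cells (0.316% to 9.07%), and in Tumor 2 0.735% against 4.48%, so neither library set the macrophage-like share apart from that of T- or NK-like cells at this depth. Tgfa was at 0 in all 6 libraries, and Btc, Epgn and Erbb2 had at most 2 UMIs in any.

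**Figure D4:**
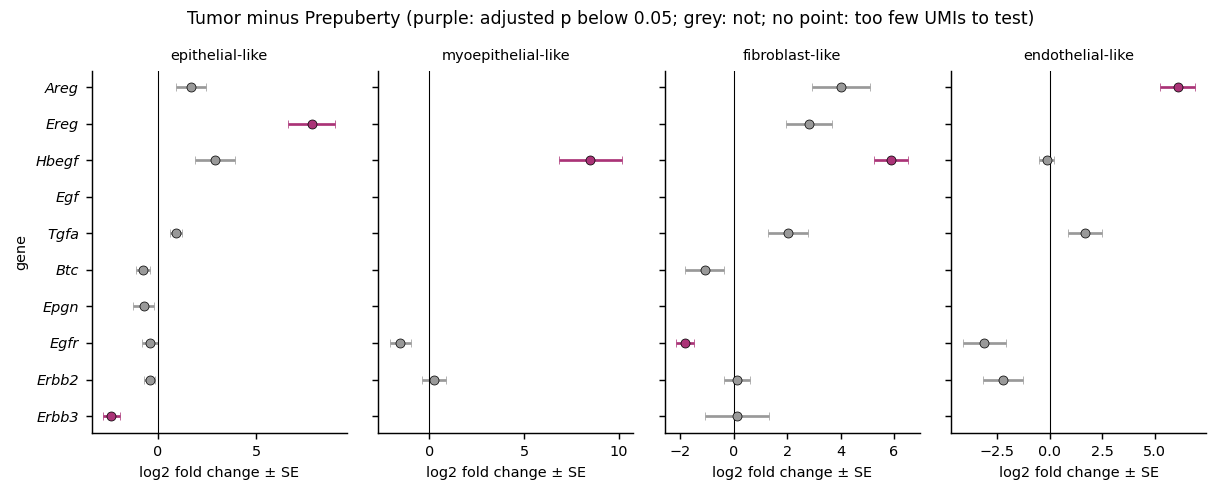
Log2 fold change from Prepuberty to Tumor of each member in 4 classes, with bars of 1 SE; purple points have an adjusted p below 0.05, grey points do not, and a gene without a point had too few UMIs to be tested. Ereg and Erbb3 stand out in epithelial-like cells (7.82 and -2.34), Hbegf in myoepithelial-like and fibroblast-like cells (8.49 and 5.90), Egfr in fibroblast-like cells (-1.83) and Areg in endothelial-like cells (6.10), where Ereg, myoepithelial-like Hbegf and Areg were let in by the filter through Tumor alone and Areg rests on 13 and 11 Tumor UMIs.

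Whether a state effect differed between epithelial-like, fibroblast-like and macrophage-like cells was tested directly, in a model with library as a block. Of 81 such tests of a member, 7 passed. For DCIS minus Prepuberty, 18 of 13733 genes passed in fibroblast-like against epithelial-like cells, 35 in macrophage-like against epithelial-like and 7 in macrophage-like against fibroblast-like cells. For Tumor minus DCIS in macrophage-like against epithelial-like cells 486 passed. The shares in the comparisons where a member passed follow below. For Hbegf, the change from Prepuberty to Tumor was larger in fibroblast-like than in epithelial-like cells by 3.59 ± 0.62 on the log2 scale (adjusted p = 0.00338) and from DCIS by 3.25 ± 0.63 (adjusted p = 0.00701). For Egfr, the change from DCIS to Tumor was lower in fibroblast-like than in epithelial-like cells by a log2 difference of -2.10 ± 0.48 (adjusted p = 0.0173). The share of all 13733 genes that passed was 9.07% for Tumor minus DCIS in fibroblast-like against epithelial-like cells, 5.09% in macrophage-like against fibroblast-like cells, 11.4% for Tumor minus Prepuberty in fibroblast-like against epithelial-like cells, 5.01% in macrophage-like against epithelial-like cells and 3.52% in macrophage-like against fibroblast-like cells. The Egfr difference was lost without DCIS 1 (-1.99, adjusted p = 0.153), without DCIS 2 (-2.17, 0.149) and without cells with a T antigen UMI (-1.70, 0.0534), at a cluster resolution of 1.2 (-1.60, 0.0895) and without integration (-1.55, 0.123), and the Hbegf difference from DCIS without DCIS 2 (2.95, 0.126). The Hbegf differences were kept at 4.38 from DCIS and 4.697 from Prepuberty without Tumor 1, and at 2.22 and 2.48 without Tumor 2.

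The 47 other genes of the pathway, from neuregulins and sheddases to feedback regulators and transcriptional targets, were tested beside the members. In epithelial-like cells, 45 could be tested and 1 was higher in Tumor than in DCIS, the cyclin gene Ccnd1 (log2 fold change 3.21 ± 0.45, adjusted p = 0.0289). Against Prepuberty 3 were higher, the ETS factors Etv5 (3.09 ± 0.66, adjusted p = 0.0366) and Etv4 (2.26 ± 0.51, 0.0424) and the suppressor Socs5 (1.23 ± 0.29, 0.0484), and 1 was lower, Rhbdf2 (-1.29 ± 0.30, 0.0440), which helps the sheddase ADAM17 mature. The median log2 fold change of the tested list was 0.20 and 0.15 in these comparisons, against 0.09 and 0.09 for all genes, of which 2.92% and 7.66% passed.

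In fibroblast-like cells, 3 of 43 pathway genes were higher in Tumor than in DCIS, namely the ERK phosphatase genes Dusp6 (2.25 ± 0.45, adjusted p = 0.0207) and Dusp5 (2.70 ± 0.67, 0.0387) and Ccnd1 (4.39 ± 0.90, 0.0224), and against Prepuberty 1 was, the feedback gene Spry1 (1.81 ± 0.40, 0.0335), where 14.1% and 9.13% of all genes passed. Without T antigen cells Dusp5 no longer passed (2.25, adjusted p = 0.0709), and Dusp6 (2.04, 0.0331), Ccnd1 (4.09, 0.0424) and Spry1 (2.17, 0.0229) did. The list's medians were -0.07 and 0.05, against 0.13 and 0.02 for all genes. In myoepithelial-like cells 3 of 38 were higher and 6 lower between DCIS and Tumor, among them Nrg1, the gene of an ERBB3 ligand (-3.92, adjusted p = 0.0118), and the EGFR inhibitor Errfi1 (-3.61, 0.00186), where 22.6% of all genes passed. Errfi1 was highest in DCIS, at 578 and 493 CPM, against 121 and 117 in Prepuberty and 89.8 and 42.1 in Tumor. Against Prepuberty 2 were higher and 1 lower, where 8.67% of all genes passed. Without T antigen cells 6 of the 9 calls against DCIS were kept, Nrg1 (-8.75, adjusted p = 0.00367) and Errfi1 (-3.78, 0.000750) among them, while Lrig3 (-2.01, adjusted p = 0.130) and Spred2 (-1.75, 0.109) no longer passed and Ccnd1 could not be tested. Of the 3 calls against Prepuberty, 1 was kept. In endothelial-like cells 5 of 41 were higher and 4 lower against DCIS, with Ccnd1 higher (4.40, adjusted p = 0.00516) and the AP-1 gene Fosl1 lower (-3.68, 0.00331), where 13.7% of all genes passed. Against Prepuberty 6 were higher and 4 lower, where 11.8% passed. In macrophage-like cells Fos was higher against DCIS (1.69, adjusted p = 0.0395) and Mapk3, which encodes ERK1, lower (-1.33, 0.0428), of 32 tested, where 6.22% of all genes passed. Mapk3 was highest in DCIS, at 108 and 135 CPM, against 57.2 and 53.1 in Prepuberty and 63.8 and 81.3 in Tumor. Against Prepuberty 1 pathway gene was higher and 0 lower, where 5.78% of all genes passed. By edgeR none of 37 passed in hormone-sensing and none of 43 in secretory cells (45 of 240 tests at an unadjusted p under 0.05, 11 called by DESeq2), and none passed in any class between Prepuberty and DCIS (29 of 279 tests at an unadjusted p under 0.05, 1 called by DESeq2).

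The genes whose log2 level most resembled each member were taken over 62 profiles, each a class in a library, and 10397 genes. Profiles of 1 library share their depth and preparation, so the correlations are descriptive and carry no p. Areg was closest to Wnt7b, S100a11 and Ly6d (Pearson's r 0.81, 0.77 and 0.76), Ereg to Acan, Hmga2 and Mrc2 (0.84, 0.84 and 0.79) and Hbegf to Emp1, Tnfrsf12a and Dph3 (0.79, 0.75 and 0.75). Tgfa, with r of 0.88 for Elovl7 and Itpr3 and 0.87 for Rtkn, and Erbb3, with 0.93 for Myh14, 0.92 for Vtcn1 and 0.89 for Epb41l4b, had the closest neighbours. Vtcn1 was also the first neighbour of Btc (0.79). Egfr was closest to Lhfp, Rab34 and Rgma (0.81, 0.78 and 0.76) and Erbb2 to Trim2, Nfix and Plekhh2 (0.80, 0.80 and 0.79). By Spearman's rank correlation, 1 or 2 of these first 3 genes were again among the first 3 for each member. Egf and Epgn were too low for this, with a mean under 5 CPM.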

How the data were processed

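Single-cell libraries of 6 mammary samples were analysed from the deposited counts, UMIs per gene and cell made by the authors with Cell Ranger (mm10, with the SV40 large T antigen added as a feature). The submitters' processing notes also name STAR, SAMtools, Picard and Salmon. Cells with at least 200 genes and under 10% mitochondrial UMIs were kept, and the cells with the highest Scrublet scores, 0.8% per 1000 cells, were removed (707 cells, where Scrublet's own cutoff marked 31). Seurat 5.3.0 anchored the libraries on 2000 variable genes, from which the 10 members and the 47 pathway genes had been removed, and clustered them on 20 dimensions at resolution 0.8. A class needed at least 3 of its markers in 25% of cells at 2 times the rest. Counts were summed per library and class (at least 10 cells) and fitted over all 3 states with edgeR 4.0.16 in R 4.3.3 (TMM, filterByExpr, quasi-likelihood test, Benjamini-Hochberg over all genes of the class), and class by state terms in a model with library as a block. The fits were tested on simulated data. DESeq2 1.42.0, other scalings and filters, thinned sums, other cell filters and clusterings, a replicate block and leaving out each library were the alternatives. Levels between classes are descriptive, since clusters come from the same cells. Intervals and limits cover counting error only (95%, and 3 counts for a count of 0). All 10 members are accounted for, pathway genes are named only if they passed, at most 6 per class by adjusted p, and gene positions come from GENCODE M21. Members and lists were chosen with earlier results of these data known. Promoters of 7 of the 10 members were found in the RefSeq table, and no sequence is shown for Hbegf, Ereg or Erbb3. 1 gene of the pathway list enters the counts but is otherwise not reported here.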

Additional observations from a re-analysis of the deposited data

Results flagged for a closer look

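In 7 results the change between states differed between 2 cell classes by the test of the difference itself, out of 81 tested. Of all 13733 genes, 3.52% to 11.4% passed in the comparisons that hold these 7 results. In the other comparisons 7 to 486 genes passed. For Hbegf, Tumor minus DCIS was 3.25 higher on the log2 scale in fibroblast-like than in epithelial-like cells, and Tumor minus Prepuberty was 3.594 higher. Against fibroblast-like cells, macrophage-like cells had a log2 difference for Hbegf of -4.436 in Tumor minus DCIS and -6.276 in Tumor minus Prepuberty, and against epithelial-like cells of -2.682 in Tumor minus Prepuberty. The first of these was not called without DCIS 1 (-4.30, adjusted p = 0.105) or DCIS 2 (-4.53, 0.1004), and the last was not called in 7 of its alternatives, such as without Tumor 1 (-1.77, adjusted p = 0.0791) or Prepuberty 1 (-2.30, 0.225). For Egfr, Tumor minus DCIS had a difference of -2.096 between fibroblast-like and epithelial-like cells. For Epgn, Tumor minus Prepuberty had a difference of 5.792 between the same classes, which rests on the 57 UMIs of Tumor 2 and was 1.72 (adjusted p = 0.712) without that library and 7.54 without Tumor 1. It was lost in 9 of its 15 alternatives, among them thinned sums (4.80, adjusted p = 0.0887), a cluster resolution of 1.2 (4.04, 0.109), no integration (5.08, 0.0884), no cells with a T antigen UMI (6.31, 0.0514) and each Prepuberty or DCIS library left out (5.199 to 6.46, 0.0776 to 0.169).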

How the results depend on the processing

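Of 21 results past the threshold, 286 of 348 alternative values kept the call, 62 lost it and 0 changed direction, and of 28 not past it, 46 of 495 gained a call and 5 changed direction, the latter each with 1 library left out. Calls, each of a member in 1 comparison, numbered 3 in epithelial-like, 0 in hormone-sensing, 1 in secretory, 3 in myoepithelial-like, 4 in fibroblast-like, 3 in endothelial-like and 0 in macrophage-like cells, and 7 for the differences between classes. With no filter on low counts these were 8, 3, 7, 7, 10, 7, 1 and 15. Calls over all genes moved too, so these counts describe the settings and not the members. Between DCIS and Tumor the alternatives called 535 to 3304 genes in fibroblast-like cells (1714 in the main fit) and 14 to 2156 in epithelial-like cells (389). DESeq2 gave 2 in secretory and 8 in fibroblast-like cells, total UMIs without TMM gave 2 and 9, thinned sums gave 0 in secretory and 0 in endothelial-like cells, and the fit of only the 4 libraries compared gave 0 in secretory cells. Clustering without integration gave 2 in hormone-sensing, 0 in secretory and 1 in endothelial-like cells and 4 differences, and put 0 Tumor cells in the myoepithelial-like class, so gave no contrast with Tumor there, and only Tumor 2 cells enough for a fit in the hormone-sensing (32) and secretory (39) classes. Removing 2 times the doublets gave 1 in endothelial-like cells, and leaving out cells with a T antigen UMI, an alternative chosen after seeing the data, gave 1 in hormone-sensing cells. Leaving out 1 library at a time gave 0 to 7 in epithelial-like, 0 to 3 in hormone-sensing, 0 to 5 in secretory, 3 to 7 in myoepithelial-like, 1 to 6 in fibroblast-like, 2 to 3 in endothelial-like and 0 to 1 in macrophage-like cells, and 3 to 12 differences. The cause of these moves was not tested.

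With a library left out, the log2 fold change ran from -0.0116 (without Tumor 1) to 2.34 for Areg and from -0.279 (without Tumor 1) to 3.45 for Hbegf in epithelial-like cells against DCIS, and from -0.832 to 0.136 (without Prepuberty 2) for Egfr against Prepuberty. In macrophage-like cells it ran from -1.77 to 0.349 (without Tumor 2) for Hbegf against Prepuberty and from -5.17 (without Tumor 1) to 4.21 for Areg against DCIS.

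The labels' replicate numbers do not tie samples together, and same-numbered libraries deviated with correlations of -0.135 to 0.353 over all classes. In fibroblast-like cells all 3 pairs of states were above 0.1 (0.306, 0.105 and 0.172), with 2 numbers in each. With the replicate block there were 2 calls in secretory cells, both of Ereg, and 7 calls of 4 members in fibroblast-like cells, the latter adding Areg against Prepuberty (4.14, adjusted p = 0.00383) and DCIS (2.24, 0.0249) and Ereg against DCIS (3.02, 0.0458). In secretory cells Ereg passed against DCIS (8.65, 0.0435) and Erbb3 did not against Prepuberty (-2.02, 0.0721). Ereg met the filter in secretory cells through the Tumor libraries alone and held 0 UMIs in DCIS 1 and DCIS 2, so its calls there are a description. Differences between classes already held library as a block and were not run with DESeq2, the replicate block or the 4 libraries.

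Calls over all genes moved with these choices. With 1 library left out, they ran from 0 to 2102 (1019 with all 6) in epithelial-like cells between Prepuberty and Tumor, from 0 to 1125 (511) in secretory cells, from 136 to 1182 (650) in myoepithelial-like cells and from 41 to 2128 (1714 between DCIS and Tumor) in fibroblast-like cells. Scaling to total UMIs shifted the median log2 fold change of all genes by -0.32 to 0.72 over the 21 comparisons and raised the share of calls that were higher in Tumor than in DCIS from 58.8% to 87.1% in fibroblast-like, from 32.1% to 66.9% in epithelial-like and from 51.3% to 80.4% in myoepithelial-like cells, while the members' calls kept their directions. Depth limits the low members: Egf could not be tested in any class, and hormone-sensing, myoepithelial-like and endothelial-like cells of Tumor numbered 12 to 76 per library.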

Other observations

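A cluster of 664 cells led by Acan, Car12 and Npy met too few markers to be named, and 237 and 290 of its cells came from Tumor 1 and Tumor 2. It carried the ligands Areg (461 and 152 CPM), Ereg (69.4 and 94.1 CPM) and Hbegf (868 and 125 CPM) together with Egfr (13.3 and 29.3 CPM). In its 79 and 38 Prepuberty cells, Egfr stood at 76.4 and 28.7 CPM and Areg at 12.2 and 0 CPM. Btc stood at 53.1 and 345 CPM in those Prepuberty cells, on 48 and 60 UMIs, and at 5.61 and 2.20 CPM in Tumor. Another unnamed cluster, of 1128 cells with few UMIs each, held Hbegf at 52.5, 13.2, 316, 59.5, 761 and 40.7 CPM in the 6 libraries and Ereg in the Tumor libraries alone, at 40.8 and 16.5 CPM.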
